A study of Arabidopsis thaliana with 12 samples.

Results

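The erf5/6 double mutant was compared with wild type for its early transcript response to chitooctaose, an 8-unit fragment of the fungal wall polymer chitin. The quantity described is the difference between 2 responses. It is the log2 change from water to chitooctaose in the mutant, minus the same change in wild type, so a positive value means a higher mutant response. All 12 arrays of the series enter it, 3 in each of 4 groups, and every probe set of the Arabidopsis thaliana array was a candidate. The groups were wild type given water, wild type given 1 µM chitooctaose, the mutant given water and the mutant given 1 µM chitooctaose. All were whole seedlings 14 days old, kept in constant light and collected 30 min after treatment. The labels name the mutated genes ERF5 and ERF6 and give no alleles. They call the arrays biological replicates without saying whether these were separate cultures, so p-values measure the spread between these samples. In whole seedlings, fewer cells of a type and less RNA per cell cannot be told apart.

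Plants detect chitin fragments at the cell surface through receptor kinases with lysin motifs, among them CERK1. Calcium influx, an oxidative burst and mitogen-activated protein (MAP) kinase cascades follow within minutes, and genes for transcription factors, calcium sensors and ubiquitin ligases are switched on early. ERF5 and ERF6 are closely related transcription factors of the ERF branch of the AP2/ERF family. Factors of that branch typically bind a short promoter element called the GCC box. Defensin genes such as PDF1.2 carry that element and respond to ethylene and jasmonate. No probe set is assigned to ERF5 or ERF6 alone in the annotation used here, and the genotype of each array therefore rests on its label.

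Of 22746 probe sets, 18680 gave an intensity above 16 on at least 1 array after quantile normalization and were tested, and 10554 of these are assigned to 1 gene. The arrays of a group correlated at 0.984 or higher. A wild-type water array (replicate 1) and a wild-type chitooctaose array (replicate 2) lay apart from the other 10 on the second principal component, at -19.5 and -26.6 against -5.65 to 11.4. The count of calls and the median differences over rises and falls are given with and without them. Before normalization the median intensities differed by array, from 76.96 to 79.12 in mutant water, 80.72 to 83.16 in mutant chitooctaose, 79.24 to 83.25 in wild-type water and 78.12 to 79.15 in wild-type chitooctaose.

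No gene passed the test for a different response in the 2 genotypes. With limma and Benjamini-Hochberg adjustment, 0 of 18680 probe sets (0%) were called at an adjusted p under 0.05, and the lowest adjusted p was 0.975. In the same fit the wild-type response was called for 1894 probe sets (10.1%), the mutant response for 1608 (8.61%) and the average of both for 3166 (16.9%). At an unadjusted p under 0.05 the difference passed for 859 probe sets (4.6%), of which 440 (2.36%) were higher and 419 (2.24%) lower in the mutant. Evenly spread p-values would give 934. Without both wild-type arrays that lay apart, 1307 probe sets reached that unadjusted level and 0 were called. Without the wild-type chitooctaose array alone, 1524 reached it and 0 were called.

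**Figure D1:**
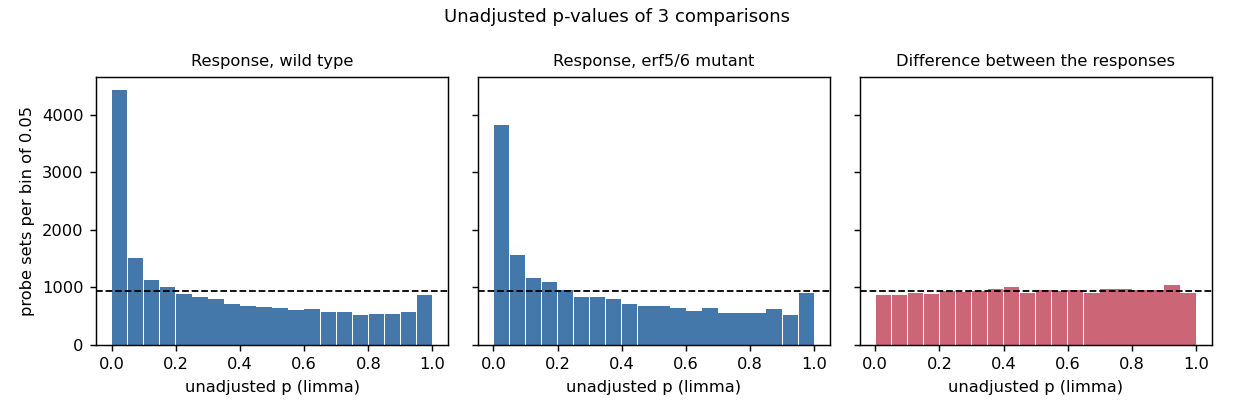
Histograms of unadjusted limma p-values over 18680 probe sets, in bins 0.05 wide, for the response of each genotype and for the difference between them; the dashed line is the count an even spread would give. Both responses pile up at low p, whereas the lowest bin of the difference holds 859 probe sets against 934 for an even spread.

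The intervals show how large a difference these arrays leave possible where levels stood above 16. Intensities under 16 were set to this floor and do not vary there. An interval that rests on such values can be narrow without bounding the true difference, and the counts below include such probe sets. AT3G53600, at the floor on every mutant array, had an interval of -0.25 to 0.14. The 95% interval lay within 2-fold in either direction for 17265 probe sets (92.4%), and its median half-width was 0.39 on the log2 scale. Precision followed brightness. The share within 2-fold was 84.1% among the 6227 dimmest probe sets, with a median half-width of 0.48. It was 97.9% among the 6227 brightest, with a median half-width of 0.34. A point difference of 2-fold or more was seen for 29 probe sets, 14 higher and 15 lower in the mutant, and 18 of these 29 belonged to the dimmest 6227.

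Genes that chitooctaose induced rose by close median amounts in both genotypes. The average response was called with a rise of at least 2-fold for 635 probe sets. This choice does not use the size of the difference, but the call and the p of the difference share 1 variance estimate. Over the 635 probe sets the median response was 1.86 in wild type and 1.91 in the mutant on the log2 scale. The median difference was 0.04, with quartiles of -0.09 and 0.21, against -0.003 over all probe sets. The difference was above 0 for 376 of the 635 (59.2%), against 49.3% of all probe sets. It was also above 0 for 1000 of the 1720 called falls under 2-fold (58.1%), where this means a smaller fall in the mutant. For called rises under 2-fold the share was 52.0%. At an unadjusted p under 0.05, 34 of the 635 (5.35%) were higher and 8 (1.26%) lower in the mutant. All probe sets gave 2.36% and 2.24%. The called falls under 2-fold gave 5.06% and 2.79%, and probe sets not called on average gave 1.86% and 2.18%. The interval lay within 2-fold for 574 of the 635 (90.4%). The median difference was 0.087 without the wild-type water array that lay apart, 0.093 without both such arrays and 0.0076 without the second wild-type water array.

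Taken array by array, the median rise over these 635 probe sets, each chitooctaose array against the mean of its own genotype's water arrays, was 1.88, 1.90 and 1.82 in wild type. It was 1.93, 1.94 and 1.88 in the mutant, so the lowest mutant array fell within the wild-type range. The median difference was 0.03 over the 348 probe sets that rose 2 to 4-fold and 0.06 over the 166 that rose 4 to 8-fold. It was 0.07 over the 121 that rose 8-fold or more, of which 107 (88.4%) had an interval within 2-fold. For 45 of the 635 all water arrays stood at the floor of 16, so the response has a lower bound alone and the difference reads the chitooctaose levels. Their median difference was 0.04, and 41 of these 45 are counted among the intervals within 2-fold.

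Falls of at least 2-fold were fewer than such rises, and smaller. Below 2-fold, 1720 falls and 767 rises of the average response were called. The average response was called with a fall of at least 2-fold for 44 probe sets, with a median of -1.15 in wild type and -1.21 in the mutant. The median difference was -0.07, and 38 of the 44 intervals (86.4%) lay within 2-fold. Per array the median fall was -1.18, -1.22 and -1.22 in wild type and -1.25, -1.27 and -1.17 in the mutant, which overlap. Without both wild-type arrays that lay apart, the median difference over falls was 0.094.

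A response may be called in a single genotype without the responses differing. The call was made in wild type alone for 689 probe sets and in the mutant alone for 403, against 1205 in both. Of the 689, 194 (28.2%) had an unadjusted p under 0.05 for the difference, and of the 403, 105 (26.1%) did, but both sets were chosen on parts of the same contrast. None of them passed the adjusted test of the difference.

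**Figure D2:**
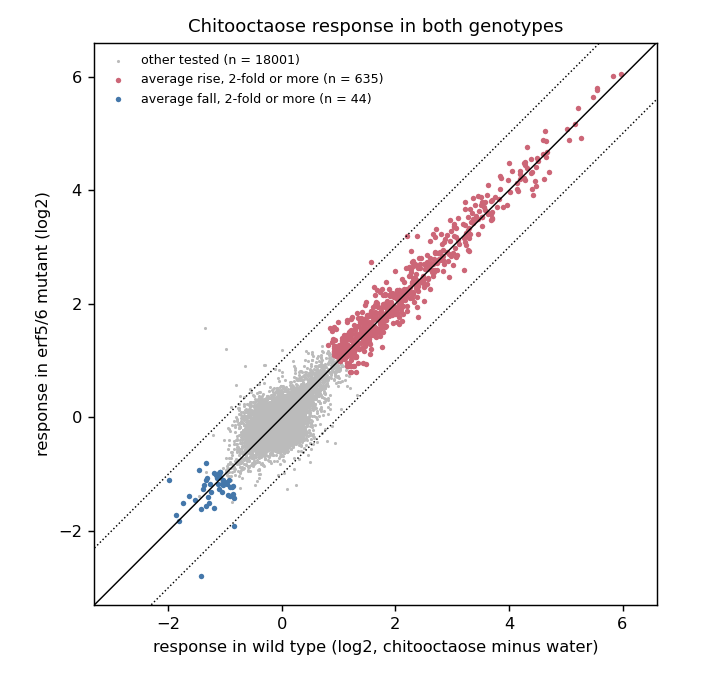
Response to chitooctaose in the mutant (vertical) against wild type (horizontal), log2 of chitooctaose over water, 1 point per tested probe set, with the 635 rises and 44 falls of at least 2-fold marked. The marked points lie along the line of equal response, with medians of 1.86 and 1.91 for rises and -1.15 and -1.21 for falls.

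The 10 genes of largest average rise were called in both genotypes. All 10 intervals of the difference included 0, 8 lay within 2-fold, and 8 of the 10 differences were above 0. STZ, a zinc finger repressor of stress responses, measured 58.2, 102 and 62.5 in wild-type water and 2745, 2493 and 2458 in wild-type chitooctaose. In the mutant it measured 71.2, 78.8 and 67.3 in water and 2448, 2772 and 2574 in chitooctaose. The treated and water arrays were far apart, and the genotypes overlapped in both treatments. The responses were 5.16 and 5.17, a difference of 0.01 ± 0.25 (SE, n = 3 arrays per group, limma; 95% interval -0.54 to 0.55).

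WRKY53, a WRKY transcription factor linked to defence and leaf senescence, had the largest difference among these 10. Its intensities were 48.9, 60.1 and 66.4 in wild-type water, 1266, 966 and 1272 in wild-type chitooctaose, 49.5, 57.5 and 46.9 in mutant water and 1350, 1485 and 1314 in mutant chitooctaose. The treated mutant arrays all lay above the treated wild-type arrays, and the water arrays overlapped. The difference was 0.44 ± 0.20 (SE, n = 3 arrays per group; 95% interval -0.00 to 0.87, adjusted p = 0.997 in limma).

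AT1G07160, which encodes a protein phosphatase of the 2C type, measured 16.5, 16 and 16.8 in wild-type water and 16, 16 and 16 in mutant water. With chitooctaose it measured 955, 967 and 879 in wild type and 1090, 1101 and 921 in the mutant, and the treated groups overlapped. Its responses are lower bounds because all mutant water arrays and 1 wild-type water array stood at the floor. The difference was 0.19 (95% interval -0.06 to 0.44) and depends on where the floor stands. AT3G02840, an armadillo-repeat protein gene, stood at the floor on every water array. It measured 1200, 971 and 883 in treated wild type and 1026, 1217 and 944 in the treated mutant, a difference of 0.07 (-0.30 to 0.43).

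Among the other rises, the calmodulin-like gene AT3G01830, also at the floor on every water array, differed by -0.08 (95% interval -0.42 to 0.27). The VQ-motif gene AT2G22880 differed by 0.16 (-0.77 to 1.09), with wild-type water values of 16.1, 44.7 and 32.8 that spread more than the rest. AT1G24140, a matrix metalloproteinase gene, measured 584, 564 and 546 in treated wild type and 456, 512 and 458 in the treated mutant. Its treated groups did not overlap, with the mutant lower, and the difference was -0.18 (-0.43 to 0.07). The small secreted peptide genes AT4G28460 and AT5G05300 differed by 0.22 and 0.29. AT1G66090, a gene of the Toll-like resistance protein class, measured 514, 572 and 555 in treated wild type and 796, 694 and 786 in the treated mutant. Those groups did not overlap, and its difference was 0.42 (-0.17 to 1.02, adjusted p = 0.997 in limma).

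The 10 genes of largest average fall gave 4 differences above 0 and 6 below, all with intervals that included 0. AT5G61590, an AP2/ERF gene that represses cuticular wax synthesis, measured 651, 719 and 749 in wild-type water and 258, 263 and 265 after chitooctaose. In the mutant it measured 604, 663 and 880 in water and 227, 216 and 250 after chitooctaose. The water arrays overlapped and the treated mutant arrays lay below the treated wild-type arrays, with a difference of -0.19 (95% interval -0.58 to 0.20). The AP2/ERF genes AT2G44940 and AT2G22200 differed by -0.26 and -0.06, the latter at the floor on every treated array. The widest pair was AT1G69760 at 0.53 (-0.06 to 1.11) and AT2G40230, an acyltransferase gene, at -0.49 (-1.23 to 0.24).

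**Figure D3:**
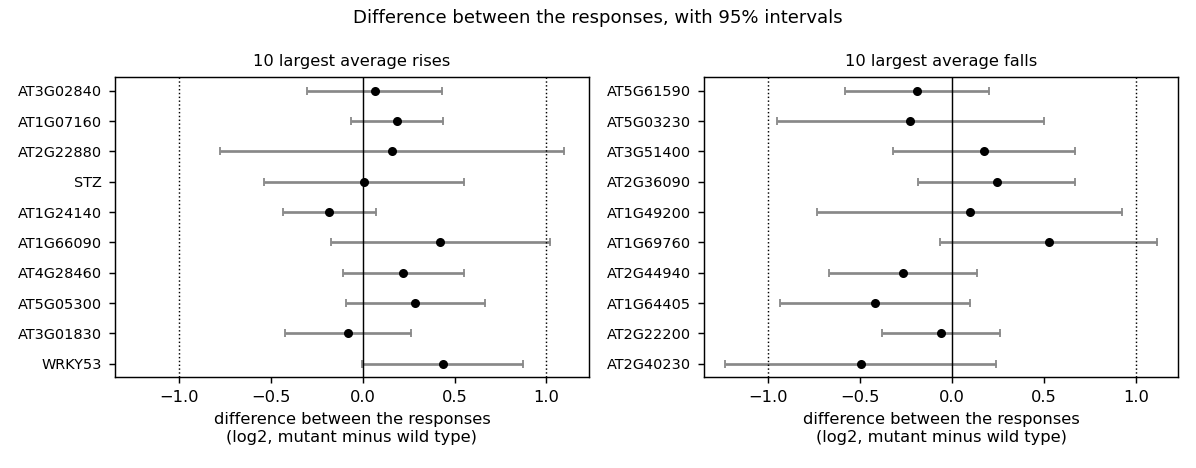
Difference between the responses (log2, mutant minus wild type) with 95% limma intervals for the 10 genes of largest average rise and the 10 of largest average fall; dotted lines mark 2-fold. All 20 intervals include 0, and the points lie between -0.49 and 0.53.

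The genes with the lowest unadjusted p were mostly dim. The 10 lowest in each direction had unadjusted p from 1.48e-04 to 0.00215, and limma's adjusted p was 0.975 for each. Their choice uses the difference itself, so their values are a description. Of these 20, 19 had a mean level below the median intensity of 119.7, 7 touched the floor on some array and 17 differed by less than 2-fold. AT3G57760 was the 1 gene of the 20 among the average rises of 2-fold, against 342 of 10554 tested probe sets with 1 gene. In 19 of the 20 genes the mutant was on opposite sides of wild type in water and in chitooctaose.

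AT5G05230 led the genes with a higher mutant response. It measured 69.0, 67.2 and 65.3 in wild-type water, 42.3, 51.1 and 43.2 in wild-type chitooctaose, 56.5, 51.6 and 51.6 in mutant water and 60.8, 54.2 and 53.5 in mutant chitooctaose. The wild-type groups were apart and the mutant groups overlapped. The response was -0.57 in wild type and 0.08 in the mutant, a difference of 0.64 ± 0.13 (SE, n = 3 arrays per group).

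AT4G36580 showed the same layout, with 37.5, 39.2 and 42.8 in wild-type water and 24.8, 24.7 and 23.8 after chitooctaose. In the mutant it measured 33.6, 31.3 and 31.9 in water and 33.2, 26.2 and 32.2 after chitooctaose, and the difference was 0.62. AT4G17470 measured 23.8, 20.8 and 19.7 in wild-type water, 17.5, 16 and 16 in wild-type chitooctaose, 16, 16.8 and 16 in mutant water and 18.9, 21.2 and 17.8 in mutant chitooctaose. AT1G50280 measured 23.0, 24.1 and 29.5 in wild-type water, 16, 16 and 16 in wild-type chitooctaose, 16, 17.9 and 18.3 in mutant water and 17.9, 16.7 and 16 in mutant chitooctaose. Both differed by 0.62, and both touched the floor, so their sizes depend on where it stands.

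AT2G39430, a dirigent-protein gene, had the lowest p of all named genes, with a lower mutant response. It measured 50.8, 46.2 and 47.0 in wild-type water, 58.6, 73.9 and 65.7 in wild-type chitooctaose, 72.5, 78.4 and 72.8 in mutant water and 62.5, 53.9 and 62.0 in mutant chitooctaose. Neither genotype's groups overlapped, and they ran in opposite directions. The difference was -0.78 ± 0.14 (SE, n = 3 arrays per group). AT2G16630, a proline-rich cell wall protein gene and the sole gene of the 20 above the median level, measured 235, 223 and 218 in wild-type water and 253, 237 and 256 after chitooctaose. In the mutant it measured 242, 247 and 248 in water and 195, 200 and 200 after chitooctaose, with a difference of -0.45.

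AT4G26880 measured 27.4, 24.3 and 28.9 in wild-type water, 28.2, 27.7 and 38.8 in wild-type chitooctaose, 31.6, 27.3 and 38.0 in mutant water and 17.2, 16 and 18.0 in mutant chitooctaose, and the difference was -1.13. The treated mutant group stood apart below the other 3. AT2G12910 measured 16, 16 and 16.2 in wild-type water, 21.3, 21.4 and 28.3 in wild-type chitooctaose, 27.0, 24.9 and 26.7 in mutant water and 16, 20.4 and 20.8 in mutant chitooctaose, a difference of -1.01. The other 12 genes of the 20 differed by 0.43 to 0.67 or by -0.40 to -1.11. They include the receptor kinase gene AT2G23200 at 0.62, the peroxidase gene AT1G44970 at -0.60 and CSLA01, a mannan synthase gene of the cell wall, at -1.11.

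**Figure D4:**
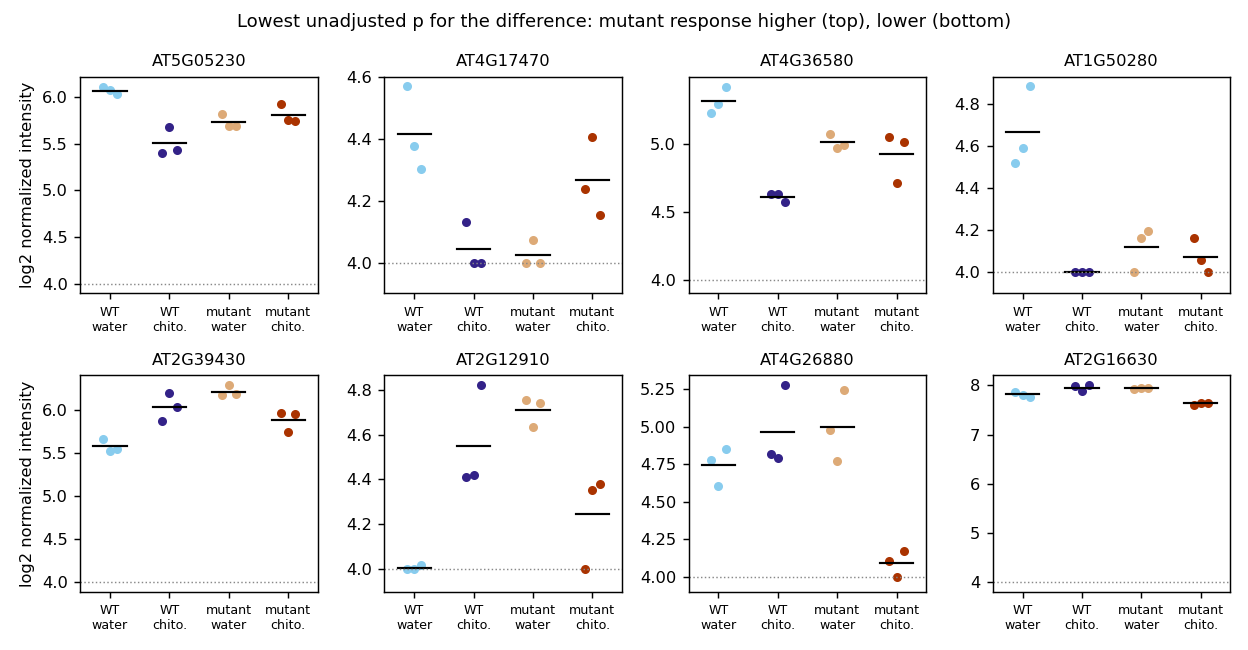
Normalized log2 intensity on each of the 12 arrays, by group, for the 4 named genes of lowest unadjusted p in each direction; points are arrays, bars are group means and the dotted line is the floor of 16. In AT2G39430 the wild-type arrays rise from water to chitooctaose and the mutant arrays fall, while AT1G50280 and AT4G17470 sit close to the floor.

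Genes of chitin signalling and its outputs were followed by role, and the lists also held tissue markers and reference genes. Of 275 entries in 20 lists, 55 had a probe set of their own that was tested. None was called for the difference in limma, 3 (5.45%, against 4.6% of all probe sets) had an unadjusted p under 0.05, and 45 intervals lay within 2-fold. Over all 55, tissue markers and reference genes included, the median difference was -0.04, with 25 higher and 30 lower in the mutant.

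Of 19 receptor entries 1 was measured, EFR, the receptor for bacterial elongation factor Tu, which differed by 0.25 (95% interval -0.38 to 0.88). EFR was at the floor on 5 of 6 water arrays, 2 of 3 wild-type chitooctaose arrays and 1 of 3 mutant chitooctaose arrays. Its difference was 0.46 without both arrays that lay apart. It was 0.07 without mutant chitooctaose replicate 3 and 0.48 without mutant chitooctaose replicate 2. Over the alternatives that kept EFR, the difference ran from 0.07 to 0.49. BIK1, the cytoplasmic kinase that relays receptor signals to the oxidase of the burst, rose in both genotypes, by 1.05 and 1.35, and differed by 0.29 (-0.14 to 0.72). Among 9 measured calcium sensors, 6 rose in wild type and 6 in the mutant, where 10.1% and 8.61% of all probe sets were called in either direction, and none passed the test of the difference. CML38 measured 51.7, 68.8 and 59.9 in wild-type water, 513, 401 and 470 in wild-type chitooctaose, 72.1, 90.0 and 49.6 in mutant water and 357, 364 and 421 in mutant chitooctaose. The treated groups overlapped at their edges, and the difference was -0.47 (-1.08 to 0.14). CML37, at the floor on every water array, rose by at least 3.97 and 3.75 and differed by -0.22, whereas AT5G39670 rose by 2.96 and 3.48 and differed by 0.52 (-0.16 to 1.21).

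Transcription factor genes gave 0 calls for the difference. The 3 measured WRKY genes of the list rose in both genotypes. Of all probe sets, 10.1% were called in wild type and 8.61% in the mutant. A further 3 WRKY genes found by symbol, WRKY20, ZAP1 and WRKY47, were called in neither and differed by -0.24, 0.10 and -0.12. WRKY22, which acts below the MAP kinases in immunity, differed by 0.25 and WRKY6, a regulator of senescence and defence, by -0.26. Of the ERF group that holds ERF5 and ERF6, the 2 measured members AT5G61590 and AT5G07580 differed by -0.19 and -0.06. Outside that group, AT1G22810, at the floor on every water array, rose by at least 2.81 and 2.85 and differed by 0.04 (95% interval -0.27 to 0.34). ORA47, a regulator of jasmonate synthesis genes, was not called in either genotype and differed by -0.12.

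All 6 measured genes of the ubiquitin ligase list rose in wild type and 5 rose in the mutant. The shares called over all probe sets were 10.1% and 8.61%, in either direction. The exception in the mutant, PUB26, rose by 0.74 in wild type (limma adjusted p = 0.0498) and 0.62 in the mutant (adjusted p = 0.112). The median difference of the list was 0.01. PUB22 and PUB23, which with PUB24 damp pattern-triggered immunity, differed by -0.04 and 0.07. PUB24 measured 30.2, 32.7 and 33.6 in wild-type water and 263, 279 and 245 after chitooctaose. In the mutant it measured 38.0, 32.8 and 33.4 in water and 361, 377 and 346 after chitooctaose. The treated groups did not overlap, and the difference was 0.35 ± 0.12 (SE, n = 3 arrays per group; limma unadjusted p = 0.0131, adjusted p = 0.975).

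No hormone gene was called for the difference. OPCL1, a ligase of jasmonate synthesis, rose by 1.67 and 1.73 and differed by 0.07 (95% interval -0.44 to 0.58), and MYC3, a jasmonate-responsive transcription factor, differed by 0.08. EIN3, the main transcription factor of ethylene signalling, differed by -0.07. SAG101, a partner of the immune regulator EDS1, rose by 1.00 and 1.14 and differed by 0.14, which became -0.018 without wild-type chitooctaose replicate 3, 0.34 without wild-type chitooctaose replicate 2 and 0.39 without both arrays that lay apart. Of 9 auxin-responsive genes found by symbol, 7 had a point difference below 0, where 9470 of all 18680 probe sets did. Of the 9, 0 were called for the difference or for a response in either genotype. The lowest unadjusted limma p was 0.171, for IAA30 at -0.52, and IAA29 differed by -0.34.

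The defensin PDF1.2 had the largest point difference of any list gene, on arrays that spread widely. It measured 62.4, 246 and 39.1 in wild-type water and 61.2, 28.4 and 44.8 after chitooctaose. In the mutant it measured 151, 127 and 80.7 in water and 332, 239 and 244 after chitooctaose. The treated mutant arrays lay above the treated wild-type arrays and above their own water controls, whereas the wild-type groups overlapped. The response was called in neither genotype, at -0.98 and 1.21, and the difference was 2.19 ± 0.79 (SE, n = 3 arrays per group; 95% interval 0.44 to 3.94, limma unadjusted p = 0.0187, adjusted p = 0.975). Over the 21 alternative settings it ranged from 1.42 to 2.75, and the lowest adjusted p was 0.484. The related PDF1.2b differed by 1.00 (-0.37 to 2.37), and by 0.55 without wild-type water replicate 2 and 0.63 without mutant water replicate 3. These 2 genes share much of their sequence, and the probe set of PDF1.2b is of a type that may cross-hybridize, so they may not be separate measurements.

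Of 6 chitinase genes, 0 were called in wild type and 1 in the mutant, against 10.1% and 8.61% of all probe sets. The called gene, AT2G43620, rose by 1.01 in the mutant against 0.42 in wild type, a difference of 0.60 (95% interval -0.14 to 1.34). AT2G43590 differed by -0.54 (-1.03 to -0.06, limma unadjusted p = 0.0319), with responses of 0.14 and -0.41 that were not called. The peroxidase gene AT1G14550 rose by 1.74 and 2.20 and differed by 0.47 (-0.18 to 1.11).

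**Figure D5:**
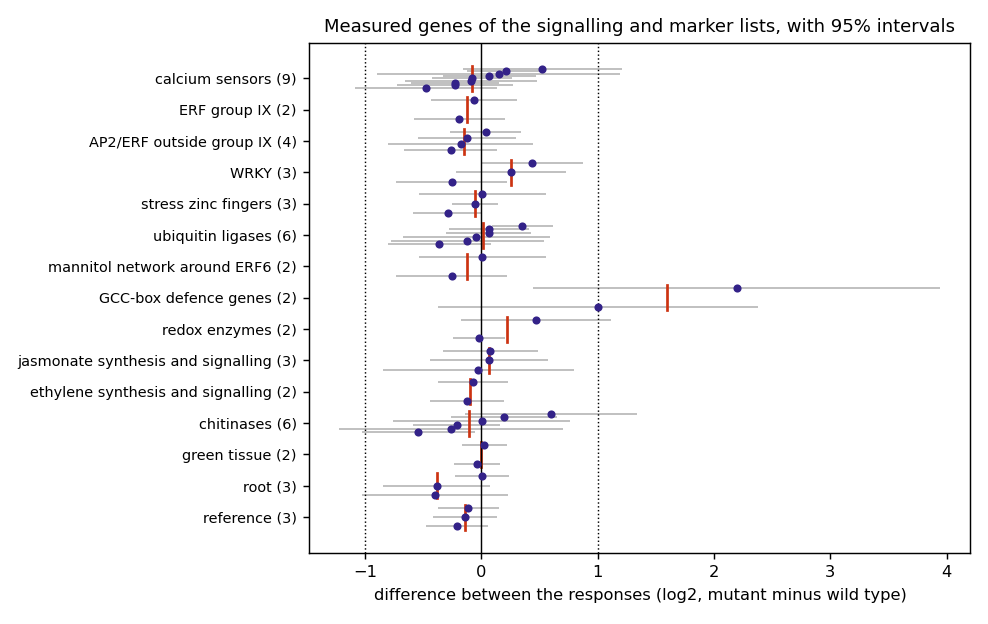
Difference between the responses (log2, mutant minus wild type) with 95% limma intervals for genes of the signalling, output, tissue and reference lists. Lists with a single measured gene are not drawn. PDF1.2 lies farthest from 0, at 2.19 with the widest interval. Over all 55 list genes, drawn or not, 45 intervals fall within 2-fold.

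Markers of both shoot and root were detected, and none was called for the difference. Of the green tissue genes, LHCB4.1, a chlorophyll-binding protein gene, differed by -0.04 and RCA, the activase of Rubisco, by 0.03. Of the root genes, PYK10, a root beta-glucosidase, differed by 0.01, and the root-hair expansins EXPA7 and EXPA18 by -0.40 and -0.38, with intervals that included 0. The median of these 3 was -0.38, and -0.22 without both arrays that lay apart. The reference genes PEX4, AT4G34270 and AT2G28390 differed by -0.14, -0.21 and -0.11, and without normalization their median was -0.02.

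Of the probe sets with no gene in the annotation, 2 were called under some alternative and were singled out after their values were seen. Probe set 245250_at measured 58.8, 73.7 and 78.8 in wild-type water, 1873, 1904 and 1727 in wild-type chitooctaose, 11.1, 17.6 and 17.3 in mutant water and 328, 362 and 325 in mutant chitooctaose, before the floor. It was lower in the mutant in both treatments, with no overlap. The floor-based difference was -0.40 (adjusted p = 0.997 in limma), and -0.25 without both arrays that lay apart. When 32 was added to each intensity in place of the floor, the difference was -1.22 (adjusted p = 0.00205). Over all 21 alternatives its adjusted p ran from 0.00205 to 1. The other, 263268_at, measured 68.0, 6.03 and 51.4 in mutant water and at most 19.6 elsewhere. Its difference was called without the second mutant water array (adjusted p = 0.00812 in limma) and under no other alternative.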

How the data were processed

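RNA of 12 seedling samples was measured on expression arrays. The deposited intensity values are linear, 1 column per array; the probe summary, background correction and scaling by the authors are not given in the sources used here. Intensities were quantile normalized, values under 16 set to 16 and log2 taken; 4066 probe sets that never exceeded it were not tested. Group means were fitted over all 12 arrays in limma 3.58.1 (R 4.3.3), with empirical Bayes moderation and Benjamini-Hochberg adjustment, two-sided; 8 residual degrees of freedom limit the precision. The fit was tested on simulated data, with differences of 2-fold or more planted in probe sets chosen well above the floor. That simulation does not cover dim probe sets or smaller differences. Naming used probe sets with a sole gene in the platform annotation (13513; 503 had several, 8730 none), updated through a RefSeq table (TAIR10.1). Gene roles are general knowledge. Named genes were the 10 lowest p in each direction, the 10 largest average rises and falls, and, of each list, the lowest p and up to 3 large responses; further list members are given to complete a role. Members and lists were chosen with earlier results of these data known. Promoter sequences were not used here. Alternatives changed normalization, floor, filters, prior, array weights, the replicate block and the arrays included.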

Additional observations from a re-analysis of the deposited data

How the results depend on the processing

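With limma, 0 probe sets were called for the difference in 19 of the 21 alternatives. Adding 32 in place of the floor gave 1 call (245250_at), and leaving out single arrays gave 0 to 1, the 1 being 263268_at without mutant water replicate 2. The count at an unadjusted p under 0.05 was 1437 without normalization (1247 higher, 190 lower), where the median of all probe sets moved to 0.10, 382 without the dimmest 40% (fewer tested), 1584 with array weights, 1307 without both wild-type arrays that lay apart, and 677 to 1524 without single arrays. The median difference over rises was 0.16 without normalization, 0.081 with array weights, 0.093 without both such arrays and 0.0076 to 0.087 without single arrays. Over falls it was 0.028 without normalization, -0.12 with the offset, -0.0054 with array weights, 0.094 without both arrays and -0.15 to 0.035 without single arrays. Apart from the number of probe sets tested, the cause was not tested. Replicate numbers gave no regular pairing of the arrays: 6 of 18 same-number pairs had deviations correlated over 0.1, and 3 of 12 arrays correlated best with their own number. Same-number correlations ran from -0.26 to 0.43, the highest between the mutant and wild-type water arrays of replicate 3. Those of other pairs ran from -0.37 to 0.24. With the replicate block, 0 probe sets were called and 991 had an unadjusted p under 0.05. Of 2301 values of the 112 named probe sets under alternatives, 0 were called and 0 changed sign where the main interval excluded 0. Dim probe sets limit what can be seen, since a level at the floor gives a bound alone.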

Other observations

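Of 342 induced probe sets with 1 gene, 23 had an unadjusted p under 0.05, 19 higher and 4 lower in the mutant, where 2.36% and 2.24% of all probe sets were; the examples were chosen after their values were seen, and limma called none. The receptor-like kinase genes AT5G25930, AT4G08850 and AT1G51820 differed by 0.37, 0.53 and 1.00. CCR2, an enzyme of the lignin pathway, stood at the floor on every water array and responded by at least 1.64 in wild type and 1.97 in the mutant, a difference of 0.33. The 4 with a lower mutant response include GLR2.8, a glutamate receptor-like channel gene also at the floor on every water array, at -0.24 and AT4G39670 at -0.61.

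Of 42 UDP-glycosyltransferase genes, which attach sugars to small molecules, 34 had a point difference below 0, with a median of -0.14, and 0 were called. Of 25 xyloglucan transferase and expansin genes, which loosen cell walls, 20 were below 0, with a median of -0.12, and 0 were called. Over all probe sets 49.3% were above 0. Without normalization both family medians were -0.03, while the median of all probe sets was 0.10. XTH19 measured 550, 501 and 622 in wild-type water, 1086, 1084 and 1150 in wild-type chitooctaose, 766, 687 and 720 in mutant water and 1088, 1204 and 1079 in mutant chitooctaose. Its treated groups overlapped and its water groups did not, and the difference was -0.36 (limma unadjusted p = 0.0159). The glutathione transferase gene GSTU22 differed by -0.59 and the cytochrome P450 gene CYP71B24 by 0.53.

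The largest point difference belonged to 266353_at, a probe set with no gene in the annotation, at 2.93 (95% interval 0.32 to 5.53, adjusted p = 0.997 in limma). It measured 13.0, 217 and 83.2 in wild-type water, 26.6, 15.8 and 41.3 in wild-type chitooctaose, 57.4, 191 and 60.2 in mutant water and 308, 149 and 386 in mutant chitooctaose.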
